A study of Mus musculus with 9 samples.

Results

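The genes examined were 8 members of the core pluripotency programme of the mouse embryonic stem cell (mESC), namely *Pou5f1*, *Sox2*, *Sall4*, *Utf1*, *Lin28a*, *Dppa4*, *Dppa2* and *Dppa5a*. They were taken by gene name from a table of 29069 genes. Of these, 18156 genes had a mean above 5 normalised counts and were tested, and 8 of 8 members were among them. Total RNA was sequenced from D3 mESC, a long-established line that was grown here without feeder cells, after 24 h in 1 of 3 media with 3 replicates each. Ground-state medium (GS) was serum-free N2B27 to which 20 ng/mL of LIF (leukaemia inhibitory factor), 1 μM of PD0325901 against MEK and 3 μM of CHIR99021 against GSK-3 had been added. The medium for differentiation (DM) was DMEM with 10% fetal bovine serum and held neither inhibitor nor LIF, so that basal medium, serum, inhibitors and LIF cannot be told apart in a comparison of DM with GS. The NO medium was DM with 250 μM of the nitric oxide donor DETA/NO. A single line was used. By the methods of the study each sample came from a dish of its own, and the labels do not say whether dishes were cultured independently, so p-values measure the spread between these samples.

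*Pou5f1* encodes OCT4, which with SOX2 occupies composite sites in the enhancers of many genes expressed in pluripotent cells, including their own. *Sall4* encodes a zinc finger protein that acts with OCT4, and *Utf1* a chromatin-associated protein whose enhancer is a classical target of OCT4 and SOX2. *Lin28a* encodes an RNA-binding protein that blocks maturation of the let-7 microRNAs, *Dppa2* and *Dppa4* encode a pair of SAP-domain proteins that bind CpG-rich promoters together, and *Dppa5a* encodes a KH-domain RNA-binding protein. In embryonic stem cells they are used as markers of the undifferentiated state, and several of them stay on when naive cells move towards the formative state.

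Stretches upstream of *Pou5f1*, *Utf1*, *Lin28a* and *Sox2* are shown because these members had a match among the promoter sequences used. The first 3 genes passed the test of NO against DM, with lower values in NO, and *Sox2* did not. *Sall4*, which also passed, is not shown. The stretches were taken from RefSeq (GRCm38.p6), where 4 of 8 members matched, read 5′ to 3′ on the strand of the gene, and end before the first annotated base in both RefSeq and GENCODE. Those of *Pou5f1*, *Utf1* and *Lin28a* abut the GENCODE start, and that of *Sox2* ends 410 bases before it. Capitals mark each match, on either strand, to an octamer core (ATGCAAA), a SOX motif (ACAATGG) or a GC box (GGGCGGG). The *Sox2* stretch lies at chr3:34649745-34649994 (plus strand), that of *Pou5f1* at chr17:35505782-35506017 (plus), that of *Utf1* at chr7:139943606-139943788 (plus) and that of *Lin28a* at chr4:134018842-134019066 (minus).
Sox2: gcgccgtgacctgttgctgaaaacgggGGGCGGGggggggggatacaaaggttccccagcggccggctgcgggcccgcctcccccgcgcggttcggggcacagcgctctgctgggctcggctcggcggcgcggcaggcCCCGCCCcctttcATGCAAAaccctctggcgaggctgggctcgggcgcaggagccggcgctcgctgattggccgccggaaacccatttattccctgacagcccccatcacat
Pou5f1: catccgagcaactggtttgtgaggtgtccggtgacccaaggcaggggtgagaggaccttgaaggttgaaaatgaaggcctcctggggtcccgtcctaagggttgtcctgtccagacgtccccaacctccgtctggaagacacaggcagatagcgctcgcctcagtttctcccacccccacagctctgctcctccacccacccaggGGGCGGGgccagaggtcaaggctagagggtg
Utf1: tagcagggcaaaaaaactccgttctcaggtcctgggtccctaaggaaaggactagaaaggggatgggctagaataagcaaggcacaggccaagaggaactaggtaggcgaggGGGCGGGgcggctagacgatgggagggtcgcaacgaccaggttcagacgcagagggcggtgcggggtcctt
Lin28a: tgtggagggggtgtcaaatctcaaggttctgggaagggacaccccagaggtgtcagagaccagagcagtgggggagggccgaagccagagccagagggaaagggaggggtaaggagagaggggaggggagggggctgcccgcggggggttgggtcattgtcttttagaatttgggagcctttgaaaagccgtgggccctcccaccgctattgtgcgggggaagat
An octamer core was present in the *Sox2* stretch only, and a GC box in those of *Sox2*, *Pou5f1* and *Utf1*. No SOX motif was found in any of the 4. Among 32851 promoter stretches of 250 bases, the octamer core was present in 4.125%, the SOX motif in 3.02% and the GC box in 23.4%. The 4 stretches hold 250, 236, 183 and 225 bases, and these matches describe letters and not binding.

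The deposited values are normalised counts. Totals per sample, from 18290445 to 20508679, are scaled and do not show the depth, which was estimated at 14307523 to 27061091 assigned reads, with 1 read worth 0.701 to 1.323 normalised counts. Members were well above that limit in each sample, the lowest value being 365. The label of the cells was checked on 11 other mESC markers. None had a group mean at or under 5, and their summed level was 104983 to 106568 in GS, 75325 to 83500 in DM and 53739 to 85758 in NO. *Tfcp2l1*, 1 of the 11, averaged 31053 in GS, 11299 in DM and 13316 in NO. NO replicate 2 stood apart, with a median absolute log2 difference of 0.398 from the other NO replicates, against 0.181 to 0.333 for the remaining samples. It gave the lowest of the 3 NO values for 6 of 8 members and for 46.7% of 8436 genes with a mean above 300. The latter share was not particular to it, since DM replicate 3 gave the lowest DM value for 44.5% of these genes and for 3 of 8 members. In bulk RNA, fewer cells of a type and less RNA per cell cannot be told apart.

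Per length of exon, the members ranged from among the most abundant to moderately abundant transcripts. *Dppa5a* had the highest mean over the 9 samples, 16687 normalised counts per kb of exon, rank 16 of 14834 protein-coding genes tested. *Pou5f1* followed at 5002 per kb (rank 106), then *Sall4* at 2092 (rank 331), *Utf1* at 1721 (rank 408), *Sox2* at 1413 (rank 513), *Dppa4* at 937 (rank 926), *Lin28a* at 750 (rank 1247) and *Dppa2* at 270 (rank 3625). Over single samples, *Dppa5a* lay between 12866 and 21635 per kb, above *Pou5f1* in any sample (1902 to 6830). *Pou5f1* and *Sall4* (1376 to 2464 per kb), *Sall4* and *Utf1* (496 to 4453), *Utf1* and *Sox2* (1114 to 1876), *Sox2* and *Dppa4* (650 to 1266), *Dppa4* and *Lin28a* (370 to 1160), and *Lin28a* and *Dppa2* (149 to 454) overlapped in their ranges over all 9 samples. Within a sample, *Pou5f1* was above *Sall4* and *Lin28a* above *Dppa2* in 9 of 9, *Sox2* above *Dppa4* and *Dppa4* above *Lin28a* in 8 of 9, *Sall4* above *Utf1* in 6 of 9 (not in DM) and *Utf1* above *Sox2* in 4 of 9, so that *Utf1* has no fixed place among its neighbours. Its mean level was 730 per kb in GS, 3299 in DM and 1133 in NO.

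**Figure D1:**
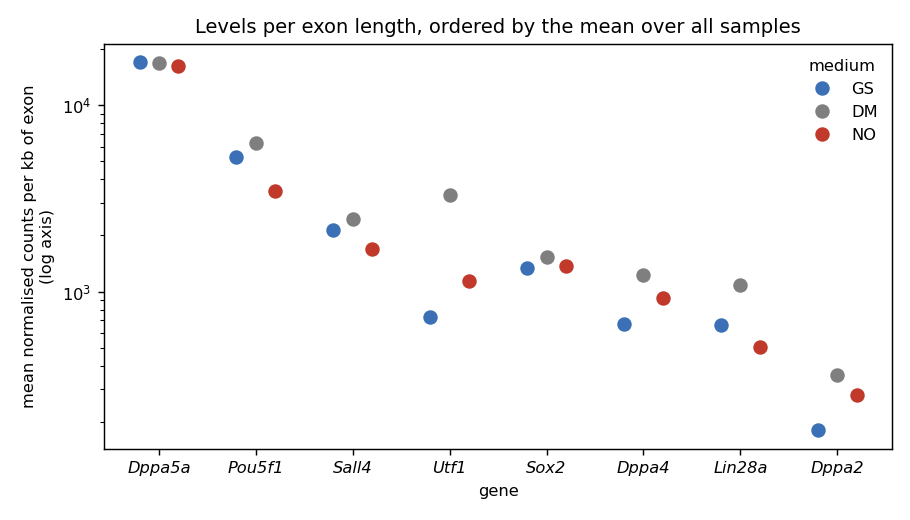
Mean normalised counts per kb of exon (log axis) of the 8 genes in GS, DM and NO (n = 3 each), ordered by the mean over the 9 samples. *Dppa5a* lies near 17006 per kb in GS and 16198 in NO, whereas *Utf1* moves between 730 in GS and 3299 in DM.

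Differences among the 3 media were tested first with the moderated F test of limma. They passed an adjusted p of 0.05 for 5 of 8 members, *Utf1* (adjusted p = 0.00221), *Dppa4* (0.00316), *Lin28a* (0.00327), *Dppa2* (0.0169) and *Pou5f1* (0.0458), where 23.3% of the 18156 genes tested did so. *Sall4* (0.0576), *Sox2* (0.725) and *Dppa5a* (0.928) did not.

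The comparison of DM with GS asks which transcripts differ after 24 h without the inhibitors and LIF and with serum. *Utf1*, *Dppa2*, *Dppa4* and *Lin28a* rose in DM, from 1.65-fold for *Lin28a* to 4.54-fold for *Utf1*, and no member fell. The background is 4.37% of all tested genes called higher and 2.32% called lower. With a minimum of 2-fold as well, 1 member (*Utf1*) was called, against 4.2% of all genes. The 3 DM values lay above the 3 GS values for 5 members, the 4 called and *Sall4*, while groups did not overlap for 29.6% of all genes. The median log2 fold change was 0.49 over the 8 members and 0.00 over all genes tested.

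NO and DM were compared to single out the nitric oxide donor, since the media are otherwise alike. Lower in NO were *Lin28a*, *Utf1*, *Pou5f1* and *Sall4*, and no member was higher. Of all genes tested, 5.24% were called lower and 9.01% higher. *Utf1* and *Lin28a* were past 2-fold as well, a count of 2 members against 8.55% of all genes. The NO values lay below the DM values without overlap for 5 members, the 4 called and *Dppa4*, against 33.4% of all genes in either direction. The median log2 fold change over the members was -0.48, and over all genes 0.00.

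Between NO and GS, which differ in both the medium and the donor, *Dppa4* alone passed the test, 1.36-fold higher in NO. No member was called lower, although 2, *Pou5f1* and *Lin28a*, were lower at an unadjusted p under 0.05 (limma). *Pou5f1* was called lower with a correction for GC content. It was also called lower with a replicate block, although replicate numbers were not taken to pair NO with GS. With only the 6 NO and GS samples no member was called. Among all genes, 13.4% were called higher and 6.64% lower. None of the 8 members, against 11.7% of all genes, was also changed by 2-fold. Groups did not overlap for 4 members, with *Dppa2* and *Dppa4* higher and *Pou5f1* and *Sall4* lower in NO, against 39.1% of all genes. The median log2 fold change was -0.03 over the members and -0.02 over all genes. The comparisons share samples in pairs, so a high DM value enters both a rise from GS to DM and a fall from DM to NO.

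**Figure D2:**
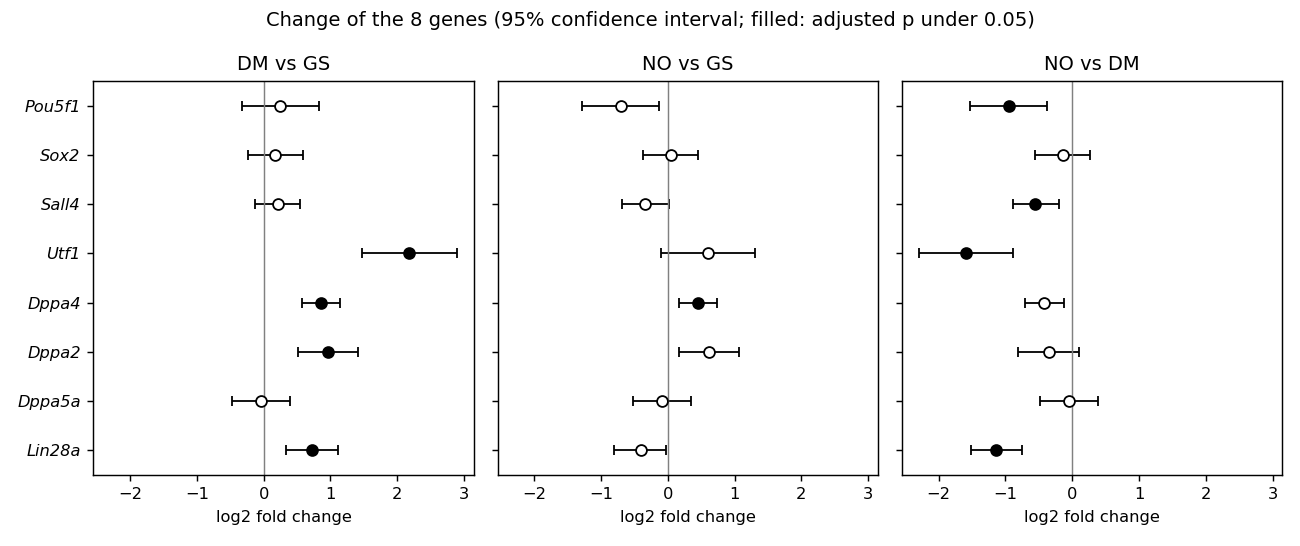
Log2 fold change of each of the 8 genes with its 95% confidence interval for the 3 pairs of media (limma, n = 3 per medium), filled where the adjusted p was under 0.05. Filled points number 4 to the right of 0 for DM vs GS, 1 to the right of 0 for NO vs GS and 4 to the left of 0 for NO vs DM.

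*Pou5f1* (ENSMUSG00000024406, GRCm38 chromosome 17, 35506018 to 35510772, plus strand) was measured at 12537, 11278 and 11710 normalised counts in replicates 1, 2 and 3 of GS, 15094, 11988 and 15354 in DM, and 8983, 4276 and 9978 in NO. GS and DM values overlapped, and the NO values lay below those of both other media, with NO replicate 2 far below its 2 companions. The mean and SD (n = 3) were 11842 ± 640 for GS, 14145 ± 1873 for DM and 7746 ± 3046 for NO. *Pou5f1* was 1.94-fold lower in NO than in DM, or -0.95 on the log2 scale (SE 0.26, adjusted p = 0.0349). Without NO replicate 2 the log2 fold change was -0.57 (adjusted p = 0.0423). The call was lost without any 1 of the 3 GS or the 3 DM replicates, at an adjusted p of 0.0546 to 0.101. Against GS, the NO value was -0.70 on the log2 scale (95% confidence interval from -1.28 to -0.13, adjusted p = 0.081), which came to -0.86 (adjusted p = 0.0424) without NO replicate 1, -0.93 (adjusted p = 0.0467) without NO replicate 3 and -0.32 without NO replicate 2. It passed the test with a replicate block (-0.70, adjusted p = 0.0418) and with a correction for GC content (-0.89, adjusted p = 0.0395). It did not pass in the 6 NO and GS samples alone, and replicate numbers were not taken to pair NO with GS. Between DM and GS the log2 fold change was 0.25, with an interval from -0.33 to 0.83 (adjusted p = 0.661). Exons of *Pou5f1* share 317 bases with *Gm19553* on the other strand, whose own values were 2 to 18.

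*Sox2* (ENSMUSG00000074637, chromosome 3, 34650405 to 34652461, plus strand, a single exon of 2057 bases within the long *Sox2ot* gene) gave values of 3189, 2540 and 2520 in GS, 2292, 3315 and 3859 in DM, and 2566, 3122 and 2749 in NO. The 3 media overlapped, and NO replicate 2, lowest for *Pou5f1*, was the highest of the NO samples for *Sox2*. Log2 fold changes were 0.17 for DM against GS (95% confidence interval from -0.24 to 0.59, adjusted p = 0.669), 0.04 for NO against GS (-0.37 to 0.45, adjusted p = 0.916) and -0.14 for NO against DM (-0.55 to 0.27, adjusted p = 0.659). These intervals leave room for changes of up to 1.5-fold, so a modest difference was not detectable with these replicates.

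The ratio of *Pou5f1* to *Sox2* within a sample, which was added after the values had been seen, put the pair side by side. It was 3.93, 4.44 and 4.65 in GS, 6.59, 3.62 and 3.98 in DM, and 3.50, 1.37 and 3.63 in NO, with means of 4.34 ± 0.37, 4.73 ± 1.62 and 2.83 ± 1.27 (SD, n = 3 each). NO values lay below those of GS, and only NO replicate 3 reached into the DM range. An exact permutation test over the 9 samples gave p = 0.111 (adjusted over 3 ratios, 0.316; the smallest p this design allows is 0.00357).

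*Sall4* (ENSMUSG00000027547, chromosome 2, 168748332 to 168767943, minus strand) read 11611, 13259 and 10480 in the GS samples, 13640, 13601 and 13470 in DM, and 10378, 7617 and 10168 in NO. The DM samples were nearly level with each other and above the other 6, and the NO samples were lowest, although NO replicate 1 came close to GS replicate 3. *Sall4* was 1.46-fold lower in NO than in DM (log2 fold change -0.55, SE 0.16, adjusted p = 0.039). That call was lost with a replicate block over the 9 samples (adjusted p = 0.0568) and held with one over the 6 NO and DM samples (adjusted p = 0.0492), and without NO replicate 2 it was -0.40 (adjusted p = 0.11). It was also lost without GS replicate 1 or 2, any DM replicate or NO replicate 3, with adjusted p-values of 0.0551 to 0.101. Against GS, the log2 fold change was 0.21 in DM (-0.13 to 0.55, adjusted p = 0.503) and -0.34 in NO (-0.68 to 0.01, adjusted p = 0.151). *Gm14261*, which shares 526 exonic bases with *Sall4* on the other strand, had values of 6 to 18. The ratio of *Sall4* to *Pou5f1* averaged 1.00 in GS, 0.97 in DM and 1.32 in NO (exact permutation test, p = 0.211, adjusted 0.316).

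*Utf1* (ENSMUSG00000047751, chromosome 7, 139943789 to 139945112, plus strand) varied most among the 8 members in DM against GS and in NO against DM. Its values were 913, 1164 and 609 in GS, 3184, 3497 and 5464 in DM, and 1764, 783 and 1624 in NO. Each DM sample was above the other 6, and NO replicate 2 lay within the GS range while NO replicates 1 and 3 were above it. *Utf1* rose 4.54-fold from GS to DM (log2 fold change 2.18, SE 0.32, adjusted p = 0.00198) and was 3.00-fold lower in NO than in DM (-1.59, SE 0.32, adjusted p = 0.0107). Both calls held in 22 of 22 alternative fits. NO against GS gave 0.60 (95% confidence interval from -0.11 to 1.31, adjusted p = 0.213), and 0.97 (adjusted p = 0.034) without NO replicate 2. The longest transcript of *Utf1* has a GC content of 63.5%, above 99.1% of the genes tested, for which the median was 50.1%.

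*Lin28a* (ENSMUSG00000050966, chromosome 4, 134003330 to 134018841, minus strand) read 2594, 2696 and 2589 in GS, 4634, 4098 and 4288 in DM, and 2589, 1477 and 2004 in NO. GS samples were nearly level, DM samples stood above all others, and NO replicate 1 matched GS replicate 3 while the other NO samples were lower. *Lin28a* was 2.20-fold lower in NO than in DM (log2 fold change -1.14, SE 0.18, adjusted p = 0.00379), a call that held in 22 of 22 alternative fits. It rose 1.65-fold from GS to DM (0.72, SE 0.18, adjusted p = 0.0322), but that call was lost without any 1 of the GS or DM replicates or NO replicate 3, at an adjusted p of 0.0544 to 0.114. The log2 fold change of NO against GS was -0.41 (-0.80 to -0.03, adjusted p = 0.122), and -0.61 (adjusted p = 0.0137) without NO replicate 1. *Gm13061*, which shares 234 exonic bases on the other strand, had values of 0 to 4.

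**Figure D3:**
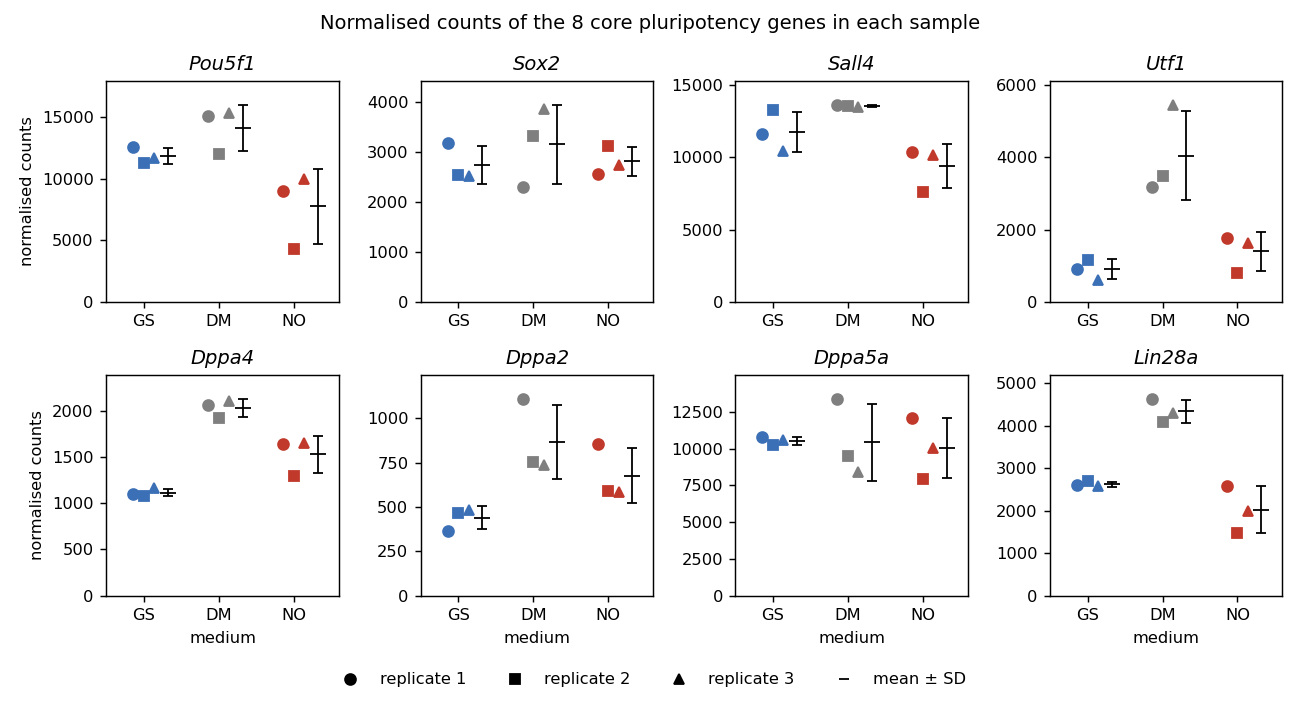
Normalised counts of each of the 8 genes in each sample of GS, DM and NO, with the mean ± SD (n = 3) beside the points and the replicate number by symbol. The DM samples of *Utf1* (3184 to 5464) and *Lin28a* (4098 to 4634) lie above all others, NO replicate 2 is lowest for *Pou5f1* (4276), and the media overlap for *Sox2* and *Dppa5a*.

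*Dppa4* and *Dppa2* are neighbours on the plus strand of chromosome 16, with 9670 bases and no annotated gene between them. *Dppa4* (ENSMUSG00000058550, 48283733 to 48294237) gave 1101, 1080 and 1162 in GS, 2064, 1915 and 2104 in DM, and 1642, 1293 and 1647 in NO. The 3 media formed separate steps, lowest in GS, highest in DM and intermediate in NO. *Dppa4* rose 1.82-fold from GS to DM (log2 fold change 0.86, SE 0.13, adjusted p = 0.00237), which held in 22 of 22 alternative fits, and 1.36-fold from GS to NO (0.45, SE 0.13, adjusted p = 0.0347). The latter call was lost without any GS replicate, DM replicate 1 or 2, or NO replicate 1 or 3 (adjusted p = 0.0517 to 0.123). NO against DM gave -0.42 (95% confidence interval from -0.71 to -0.13, adjusted p = 0.0557), and -0.47 (adjusted p = 0.0377) without NO replicate 1.

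*Dppa2* (ENSMUSG00000072419, 48303908 to 48319723) read 365, 469 and 484 in GS, 1111, 752 and 740 in DM, and 854, 592 and 587 in NO. GS was below both other media without overlap, DM and NO overlapped, and replicate 1 was the highest in DM and in NO. *Dppa2* rose 1.95-fold from GS to DM (log2 fold change 0.96, SE 0.21, adjusted p = 0.0172). Without GS replicate 1, GS replicate 2 or DM replicate 1 the adjusted p was 0.0777, 0.052 and 0.0733. NO against GS gave 0.61 (0.16 to 1.07, adjusted p = 0.0581), which passed without DM replicate 1 (adjusted p = 0.0473), and NO against DM gave -0.35 (-0.81 to 0.10, adjusted p = 0.273). *Dppa2* kept a similar proportion to *Dppa4*, with a mean ratio of 0.39 ± 0.05 in GS, 0.43 ± 0.10 in DM and 0.44 ± 0.08 in NO (exact permutation test, p = 0.721, adjusted 0.721).

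*Dppa5a* (ENSMUSG00000060461, chromosome 9, 78367052 to 78368177, minus strand) stood at 10781, 10216 and 10583 in GS, 13392, 9515 and 8397 in DM, and 12074, 7964 and 10042 in NO. The 3 media overlapped, and replicates spread more widely in DM and NO, with an SD of 2621 and 2055, than in GS, with 287. Log2 fold changes were -0.04 in DM against GS (95% confidence interval from -0.47 to 0.39, adjusted p = 0.937), -0.09 in NO against GS (-0.52 to 0.34, adjusted p = 0.781) and -0.05 in NO against DM (-0.48 to 0.38, adjusted p = 0.891). The related sequences *Dppa5b* and *Dppa5c* lie on the same chromosome, and reads they share with *Dppa5a* did not enter the counts, so its level is uncertain.

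Across the 8 members, replicates differed by a median SD (log2) of 0.12 for GS, 0.27 for DM and 0.30 for NO, beside 0.14, 0.17 and 0.21 for the 8436 genes with a mean above 300. The genes whose log2 values followed *Pou5f1* most closely over the 9 samples were *Plekhf1*, *Ahsa1*, *Mrpl36* and *Tsfm*, with a Pearson r of 0.98 each. *Ahsa1*, for example, averaged 4782 in GS, 5269 in DM and 3631 in NO, and was lowest in NO replicate 2 at 2655. For *Sox2* they were *Rpl13* (r = 0.95), *Hps4* (0.94), *Dvl1* (0.92) and *Hdhd2* (0.89). Among the NO samples *Rpl13* was highest in replicate 2 at 12799, as *Sox2* was. These coefficients are descriptions over 9 shared libraries in 3 media and were picked as the highest of all candidates.

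Other genes of the network were followed through lists, and some counts were near the share of all genes called. That share was 4.37% higher and 2.32% lower in DM against GS, and 13.4% and 6.64% in NO against GS. In NO against DM it was 9.01% higher and 5.24% lower. Of 15 OCT4/SOX2 target genes, 4 rose in DM against GS (*Eras*, *Lefty1*, *Nr0b1* and *Jarid2*) and 3 fell (*Nanog*, *Fbxo15* and *Dppa3*), with a median log2 fold change of 0.29. *Lefty1*, which encodes an inhibitor of Nodal, read 534, 445 and 537 in GS, 1720, 1274 and 1406 in DM, and 414, 181 and 396 in NO. It was 2.89-fold higher in DM than in GS (adjusted p = 0.00566). *Eras*, a constitutively active Ras-like gene of mESC, rose 5.39-fold (adjusted p = 0.011, or 0.0508 without DM replicate 3), and *Nr0b1*, a nuclear receptor gene, 2.66-fold (adjusted p = 0.00229). *Nanog*, the homeobox factor of the naive state, had 14041, 12184 and 15465 in GS, 8190, 8140 and 7596 in DM, and 12693, 7678 and 12681 in NO. Its level fell by 0.80 on the log2 scale from GS to DM (adjusted p = 0.0311, and 0.0619 to 0.137 without any 1 GS or DM replicate). *Fbxo15* fell by 0.86 (adjusted p = 0.00322) and *Dppa3* by 1.93 (adjusted p = 0.0303, and 0.063 to 0.131 without any GS replicate or DM replicate 2 or 3).

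In NO against DM, 4 of the 15 targets were lower (*Lefty1*, *Nr0b1*, *L1td1* and *Jarid2*) and *Fbxo15* was higher, with a median of -0.47. *Lefty1* was 4.69-fold lower (log2 fold change -2.23, adjusted p = 0.00188). *Nr0b1* was 1.86-fold lower (adjusted p = 0.0201, and 0.0602 or 0.065 without DM replicate 1 or 3). *L1td1*, which encodes an RNA-binding protein, was 1.73-fold lower (adjusted p = 0.0291, and 0.0608 to 0.107 without DM replicate 1 or 2 or NO replicate 2 or 3). *Fbxo15* was 1.45-fold higher (adjusted p = 0.0253, and 0.0509 to 0.0781 without any DM replicate or NO replicate 2 or 3). Against GS, *Dppa3* was lower in NO by 3.14 on the log2 scale (8.81-fold, adjusted p = 0.00136), and no target was higher by the limma test (1 at an unadjusted p under 0.05); the median was -0.34.

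**Figure D4:**
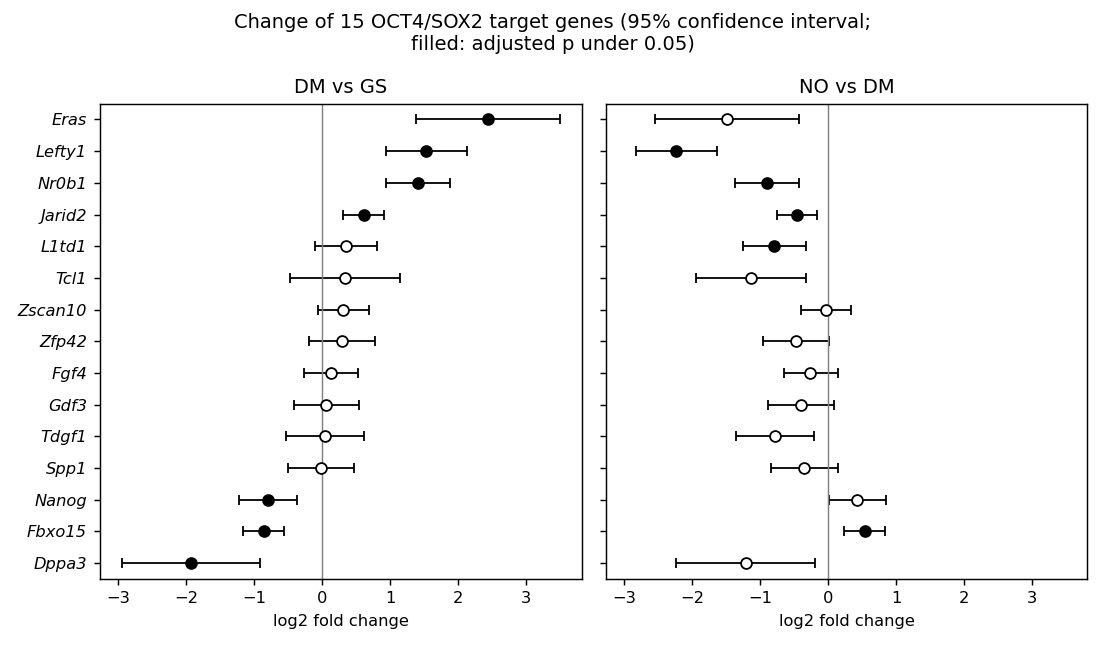
Log2 fold change with 95% confidence interval of 15 OCT4/SOX2 target genes in DM vs GS and NO vs DM (limma, n = 3 per medium), filled where the adjusted p was under 0.05 and ordered by DM vs GS. *Eras* (2.43) is at the top and *Dppa3* (-1.93) at the bottom in DM vs GS, and *Lefty1* (-2.23) is farthest below 0 in NO vs DM.

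Of 25 genes for protein partners of OCT4, none passed in DM against GS (2 at an unadjusted p under 0.05, limma), 1 (*Smarca4*) was lower in NO than in GS (adjusted p = 0.0495, lost without any 1 replicate other than GS replicate 3 or DM replicate 3, at 0.0599 to 0.177) and 6 were lower in NO than in DM, with medians of 0.08, -0.17 and -0.30. *Smarca4*, the ATPase of the BAF remodelling complex, was 1.52-fold lower in NO than in DM (6255, 6994 and 6616 against 4443, 4273 and 4372 normalised counts, adjusted p = 0.017, and 0.0617 or 0.0558 without DM replicate 2 or NO replicate 3). The others were *Mbd3*, a subunit of the NuRD complex (1.71-fold), *Parp1* (1.57-fold), *Nacc1* (1.53-fold), *Sall1* and *Smarcd1*. *Mbd3* lost its call without DM replicate 2 or 3 or NO replicate 2 or 3 (adjusted p up to 0.0835), *Parp1* without DM replicate 1 or 2 or NO replicate 2 or 3 (up to 0.0901), and *Nacc1* without any DM replicate or NO replicate 2 or 3 (up to 0.0711).

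Relatives of the members did not form 1 pattern. Of 11 other POU genes tested, 2 were higher and 1 lower in DM than in GS, and 3 higher and 2 lower in NO than in GS. In NO against DM, 1 was higher and 2 lower. *Pou4f3*, higher in NO than in both other media (means of 2.3 in GS, 6.3 in DM and 145.7 in NO), passed the filter only through NO. *Pou3f1*, which encodes OCT6, rose from 16, 23 and 16 normalised counts in GS to 57, 82 and 78 in DM (adjusted p = 0.00256). Of 14 other SOX genes tested, 4 rose in DM against GS, among them *Sox4* (4.36-fold, adjusted p = 0.000303) and *Sox11* (4.92-fold, adjusted p = 0.00187), and none fell (limma, 0 at an unadjusted p under 0.05). In NO, 5 SOX genes were higher and 1 lower than in GS, and 1 was higher and 4 lower than in DM. *Sox12* was 2.58-fold lower in NO than in DM (adjusted p = 0.00531).

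*Sall1*, a close relative of *Sall4*, read 3311, 3382 and 2923 in GS, 5007, 5618 and 4831 in DM, and 4227, 2102 and 3309 in NO. It was 1.67-fold lower in NO than in DM (adjusted p = 0.0397), a call lost without any 1 replicate other than NO replicate 1 (adjusted p = 0.0575 to 0.115, with a log2 fold change of -0.46 without NO replicate 2). *Sall2* rose 1.67-fold from GS to DM (adjusted p = 0.0168) and 1.48-fold from GS to NO (adjusted p = 0.0269). Without GS replicate 2 or 3 or DM replicate 1 or 2 the adjusted p of the former was 0.0588 to 0.0836, and without GS replicate 2 or 3 or NO replicate 2 that of the latter was 0.0674 to 0.0974.

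Few genes of the pathway around *Lin28a* passed the test. Of 10 genes tested, none passed in DM against GS (2 at an unadjusted p under 0.05, limma), 2 were lower in NO than in GS and 1 was higher in NO than in DM, with medians of -0.05, -0.16 and -0.25. *Lin28b*, the paralogue, read 415, 370 and 435 in GS, 609, 625 and 445 in DM, and 451, 307 and 391 in NO, and its log2 fold change of NO against DM was -0.55 (95% confidence interval from -0.96 to -0.14, adjusted p = 0.0705). *Igf2bp3*, an RNA-binding protein gene regulated by let-7, was 1.72-fold lower in NO than in GS (adjusted p = 0.0125, and 0.0515 without GS replicate 3). The other calls were *Hmga2*, a let-7 target, 1.38-fold lower in NO than in GS (adjusted p = 0.0451), and *Zcchc11*, a uridylyl transferase that acts on pre-let-7, 1.54-fold higher in NO than in DM (adjusted p = 0.044). *Hmga2* lost its call without any 1 replicate other than DM replicate 3 or NO replicate 1 (adjusted p = 0.0605 to 0.157), and *Zcchc11* without any 1 replicate other than NO replicate 1 (0.0501 to 0.134).

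Genes that depend on DPPA2 and DPPA4, mostly of the Zscan4, Tcstv and Usp17l families, were higher in NO. Of 11 tested, 1 rose in DM against GS, 11 were higher in NO than in GS and 6 higher in NO than in DM. None was lower (limma, 0 at an unadjusted p under 0.05 in each comparison), and the medians were 0.32, 2.74 and 2.64. These counts are partly set by the filter. *Zscan4b* (means of 0.7 in GS, 1.3 in DM and 24.0 in NO), *Tcstv1* (0.3, 1.3 and 17.7) and *Usp17ld* (3.7, 2.3 and 38.0) passed it only through NO. At such low values in GS and DM they could hardly be called lower in NO. *Zscan4c* read 5, 6 and 9 in GS, 10, 4 and 12 in DM, and 41, 146 and 47 in NO, so the level was low and NO replicate 2 the highest. It was 7.46-fold higher in NO than in DM (adjusted p = 0.00762) and 8.90-fold higher than in GS (adjusted p = 0.0027). The copies are nearly identical and reads that fit several of them were not counted, so single values of this list are uncertain. The call of *Zscan4b* in NO against DM was lost without DM replicate 2 or 3 or NO replicate 2 (adjusted p = 0.0706 to 0.114, log2 fold change 2.44 without NO replicate 2, against 3.20), and that of *Zscan4d* without any DM replicate or NO replicate 2 or 3 (0.0616 to 0.0808, with 1.41 without NO replicate 2, against 2.23). The rise in DM against GS was that of *Mael*, lost without GS replicate 2 or 3, any DM replicate or NO replicate 3 (0.0686 to 0.182). *Dppa4* and *Dppa2* themselves were 1.36-fold and 1.53-fold higher in NO than in GS, where *Dppa4* passed the test, and 0.75 and 0.78 times as high in NO as in DM, where neither did. Of the KH-domain relatives of *Dppa5a*, 2 were tested, and *Khdc3* was 2.21-fold lower in NO than in DM (adjusted p = 0.0291, and 0.0618 to 0.0902 without any 1 DM replicate).

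Markers of other states were followed as summed levels, in which the most abundant genes of a list weigh most. The summed level of 9 formative markers was 3795 to 4300 in GS, 10181 to 11305 in DM and 3940 to 5487 in NO. Of the 9, 8 rose in DM against GS, none with a group mean at or under 5 in DM, and 6 had lower levels in NO than in DM. Every member other than *Dppa5a* also had its highest mean in DM, although the DM values of *Pou5f1* and *Sox2* overlapped those of GS. Trophoblast markers, 8 in number, summed to 725 to 787 in GS, 367 to 452 in DM, and 460, 1461 and 627 in NO replicates 1, 2 and 3. In NO replicate 2, *Krt7* (484) and *Tfap2c* (426) made up most of the sum, and *Cdx2* was 14. Higher in NO than in DM were 4 of the trophoblast markers, and 2 had a mean at or under 5 in DM. Against GS, 3 were lower in DM, while in NO 2 were higher (*Hand1* and *Krt7*) and 2 lower (*Cdx2* and *Eomes*). The 10 mesendoderm markers summed to 444 to 567 in GS, 165 to 215 in DM and 196 to 387 in NO. Of 8 tested, *T*, *Eomes* and *Gsc* were lower in DM and in NO than in GS, and 3 (*Lhx1*, *Mesp1* and *Mesp2*) were higher in NO than in GS. *Lhx1* (means of 0.7 in GS, 0.7 in DM and 30.7 in NO) and *Mesp1* (0.3, 3.3 and 12.0) passed the filter only through NO, which favours these calls. In NO against DM 3 were higher, *Mesp2*, *Lhx1* and *T*. *Lhx1* (4, 75 and 13 in NO) and *T* (8, 28 and 22) had low values. Both lost that call in several fits without 1 replicate (limma, adjusted p up to 0.124). The 9 primitive endoderm markers summed to 7932 to 8672 in GS, 3965 to 5000 in DM and 5721 to 6732 in NO. *Lama1* alone had 7405 to 8149 in GS and 2732 to 3476 in DM. In NO, 3 were higher and *Lama1* lower than in GS, and 2 were higher than in DM. The 10 neuroectoderm markers summed to 631 to 804 in GS, 380 to 581 in DM and 418 to 739 in NO, with 1 higher and 1 lower in NO than in DM. The higher one, *Zic1* (means of 4.0 in GS, 1.7 in DM and 21.3 in NO), passed the filter only through NO. The lower one, *Pax6* (4.0, 11.3 and 2.0), passed it only through DM. The 8 fibroblast markers summed to 318 to 496 in GS, 418 to 449 in DM and 385 to 416 in NO, with 1 higher in NO than in DM. NO replicate 2 gave the highest NO sum of the trophoblast, mesendoderm, primitive endoderm, neuroectoderm and fibroblast markers alike, and the lowest of the mESC and formative markers. Of the 11 mESC markers, 4 were lower in DM than in GS, 2 lower in NO than in GS, and 1 higher and 1 lower in NO than in DM. The part of other cell states in the levels of the 8 members was not tested.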

How the data were processed

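Total RNA libraries of mESC in GS, DM and NO, with 3 replicates per medium, were grouped by the sample labels. According to the study's methods, the authors removed ribosomal RNA before sequencing with an Ion Torrent Proton, trimmed reads with Reaper, aligned them to GRCm38 with STAR 2.4.0a and counted reads over exons with featureCounts 1.4.5-p1, leaving out ambiguous reads. Use of the strand was not stated. The deposited values are a score per gene, a count normalised by the authors with DESeq2 and rounded to a whole number, not a raw count. A count model planned at first was therefore not used.

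Tests used log2(value + 1) of the 18156 genes whose mean was above 5, with limma 3.58.1 in R 4.3.3, the 3 media as groups, all 9 samples in one fit, a mean-variance trend and Benjamini-Hochberg adjustment over all genes tested. Tests were two-sided, with thresholds of an adjusted p of 0.05 and, where stated, 2-fold. Fold changes refer to that same scale, which understates those of low genes. A gene near 0 in the other media could pass the mean above 5 only through the medium where it was high, which favours a call there. The procedure was tested on simulated data. Depth was estimated from the spacing of low values. Coordinates and exon lengths came from GENCODE M21 (GRCm38).

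The 8 members, the gene lists and the tests were chosen with earlier results of these data known. Named genes are the members, up to 4 genes per list and comparison with the smallest adjusted p under 0.05, and the 4 genes closest to *Pou5f1* and to *Sox2* among tested genes with a mean of at least 100. *Nanog*, *Lin28b*, *Sall1*, *Mesp1*, *Tcstv1*, *Usp17ld*, *Fgf5* and calls of a short list outside this rule were named after their values were seen. Ratios between members, the correction for GC content (lowess, span 0.3, 98.9% of tested genes) and the block in 6 samples were added after seeing the data.

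Replicate numbers 1 to 3 recur in each medium. Deviations of same-numbered samples from their group means correlated across genes at 0.16, 0.17 and 0.30 for NO and DM, and at -0.23 to 0.05 in the comparisons with GS, so numbers were taken to pair NO with DM samples only. This pairing rests on the data and not on a label. Samples with different numbers were not correlated, so these coefficients have no such pairs to be judged against. The main fit holds no replicate block.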

Additional observations from a re-analysis of the deposited data

How the results depend on the processing

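No member changed direction past the test in any of the 22 alternative fits of each comparison. *Utf1* and *Dppa4* in DM against GS, and *Utf1* and *Lin28a* in NO against DM, were called in 22 of 22, *Dppa2* in DM against GS in 17, *Lin28a* in DM against GS in 13, *Pou5f1* in NO against DM in 12, *Dppa4* in NO against GS in 12 and *Sall4* in NO against DM in 9. The 4 members called in DM against GS became 2 without a trend and 2 to 4 when 1 replicate was left out. The 1 member called in NO against GS became 0 with only the 6 samples compared, 0 with these and a replicate block, 2 with a replicate block, 0 without a trend, 2 with equal totals, 3 with a GC correction, 3 with a GC correction and the block, and 0 to 2 when 1 replicate was left out. The 4 called in NO against DM became 2 with only the 6 samples, with no minimum mean, without a trend or with quantile normalisation, and 2 to 5 when 1 replicate was left out. With the replicate block *Pou5f1* passed in NO against GS (adjusted p = 0.0418), where numbers were not taken to pair samples. It also passed in NO against DM (0.0171), and *Sall4* did not in the latter (0.0568, or 0.0492 with the block in 6 samples). The F test gave 3 in place of 5 members without a trend, and 3 to 6 when 1 replicate was left out.

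Over all genes, 1215 were called in DM against GS, 697 with 6 samples and a block, and 632 to 1922 with 1 replicate left out. In NO against GS 3640 were called, and 2051 to 4986 with 1 replicate left out. In NO against DM 2587 were called, 1107 with only 6 samples, 1464 without a trend, and 1150 to 4319 with 1 replicate left out, the last without NO replicate 1. Quantile normalisation moved the median log2 fold change of all genes to -0.115 in NO against GS and -0.084 in NO against DM. Scaling to equal totals moved it the other way, to 0.092 and 0.082. The cause was not tested.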
